A study of Mus musculus with 12 samples.

Results

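The 38 genes described here encode the amino acid arm of the ATF4 stress response and 13 cytosolic tRNA synthetases. They were taken by symbol from a list of known ATF4 regulators, targets and synthetases, which was drawn up with earlier results of these data known. All 38 were among the 24180 gene symbols in the expression tables. By role they comprise 8 regulators and stress effectors, 6 enzymes of asparagine, serine and folate metabolism, 7 enzymes of proline, sulfur, arginine and mitochondrial carbon metabolism, 4 transporters and 13 synthetases.

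ATF4 is a transcription factor whose mRNA is translated preferentially when the initiation factor eIF2 is phosphorylated, which happens when uncharged tRNA accumulates, when haem is short or when proteins misfold in the endoplasmic reticulum. It pairs with C/EBP family proteins on composite DNA elements and raises the transcription of genes that import and make amino acids and charge tRNAs. Leukaemic blood cells have been studied for their use of this programme, which also includes the stress effectors CHOP (Ddit3), Trib3 and Chac1.

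RNA sequencing was done on 12 libraries from mouse bone marrow cells of strain C57BL/6, in 3 experiments with 2 libraries per group. Each experiment set cells given PRDM16, a histone methyltransferase, against cells given PRDM16mut, a mutant form whose change the labels do not describe. In the first experiment, lineage-negative marrow cells received MLL-AF9 together with PRDM16 or PRDM16mut, and in the second they received E2A-HLF together with PRDM16 or PRDM16mut. Both genes are leukaemia fusion oncogenes. In the third experiment, marrow cells that already carried MLL-AF9, which the labels call stable cells, received PRDM16 or PRDM16mut alone. All 6 groups grew in IMDM medium that held 15% FBS and the cytokines IL3, IL6 and SCF (10 ng/ml of each). Cotransduced cells were selected for 10 days in G418 plus puromycin and stable cells for 10 days in puromycin, so both arms of each experiment had the same drugs. No group lacked both forms of PRDM16, so each difference below is between the 2 forms and may arise from either of them.

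The deposited unit is FPKM (fragments per kilobase of transcript, scaled for library size). FPKM summed to between 570872 and 683269 per library. Read depth is unknown. The steps between low values gave a depth ratio of replicate 2 to replicate 1 of 1.63 with MLL-AF9 and PRDM16 cotransduced, and of 0.919 to 1.17 for the other groups. Prdm16 itself stood at 83.9 and 119 FPKM in the PRDM16 libraries of the MLL-AF9 cotransduction, against 29.5 and 30.1 FPKM in its PRDM16mut libraries, and at 43.5 to 94.6 FPKM in the other 8 libraries. Added mutant transcript may be counted under the same symbol, so this level does not check the labels. The pan-leukocyte marker Ptprc was between 43.5 and 61.3 FPKM in all 12 libraries, whereas 4 T cell markers summed to at most 0.313 FPKM and 5 stromal markers to at most 2.56 FPKM. Progenitor markers differed between the groups of the MLL-AF9 cotransduction: Kit had 5.29 and 6.07 FPKM in PRDM16 libraries, against 46.8 and 47.5 FPKM in PRDM16mut libraries. Cd34 had 5.38 and 4.59 FPKM in PRDM16 libraries, against 20.8 and 21.1 FPKM in PRDM16mut libraries, and Ly6a had 493 and 484 FPKM, against 182 and 183 FPKM in PRDM16mut libraries. In the E2A-HLF cotransduction Ptprc, Kit, Cd34 and Ly6a together summed to 1458 and 1382 FPKM in PRDM16 libraries, against 2634 and 2815 FPKM in PRDM16mut libraries. The log2 differences of the 4 genes there ran from -0.99 to -0.11 with a median of -0.25, so the sum does not describe each gene. In the stable cells the 4 genes summed to 103 and 101 FPKM in PRDM16 libraries, against 88.3 and 88.4 FPKM in PRDM16mut libraries, with log2 differences from -0.36 to 0.56. In bulk RNA, fewer cells of a type and less RNA per cell cannot be told apart.

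Promoter sequences show which members hold the letters of a composite ATF4 element near their start site. The motif TGATGNAA was searched on both strands of RefSeq promoter windows (GRCm38.p6), which run from 250 bases before to 50 bases after each start. A window was found for 31 of the 38 genes. Of these, 13 (41.9%) held the motif, against 4.51% of the 27025 genes with a window. The list names known ATF4 targets, so a share above that of all genes could come from how it was chosen. The E-box CACGTG, a palindrome that shares no overlap with the other motif in any member window, was in 7 of the 31 (22.6%), against 8.09% of all genes. The sequences below are the elements of members whose expression is described further on, with the motif in capitals (in reverse complement where it lies on the other strand). Asns, Chac1, Nupr1 and Trib3 are given on the strand of the gene.
Asns, chr6:7693210-7693309, minus strand: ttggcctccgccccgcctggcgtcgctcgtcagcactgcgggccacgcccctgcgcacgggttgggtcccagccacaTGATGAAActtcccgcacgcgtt
Chac1, chr2:119351007-119351106, plus strand: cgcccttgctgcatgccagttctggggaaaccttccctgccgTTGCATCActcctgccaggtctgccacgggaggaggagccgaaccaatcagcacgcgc
Nupr1, chr7:126625523-126625622, minus strand: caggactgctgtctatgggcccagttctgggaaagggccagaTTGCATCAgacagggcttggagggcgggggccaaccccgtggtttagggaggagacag
Trib3, chr2:152344028-152344057, minus strand: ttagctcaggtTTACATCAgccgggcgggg

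The next elements are shown in the orientation in which the motif reads TGATGNAA, to compare the bases around it.
Slc7a11, chr3:50443666-50443685, minus strand: tgtggcTGATGCAAacctgg
Pck2, chr14:55540157-55540176, minus strand: agatacTGATGTAActttga
Pycr1, chr11:120643838-120643857, minus strand: tgtgtaTGATGCAAtgcaca
Tars, chr15:11399660-11399679, plus strand: accagcTGATGCAAcgggac

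In these elements the motif lay between 193 bases before the start (Chac1) and 22 bases after it (Trib3). Slc7a11 and Aars each held 2 copies. The other members with the motif were Vldlr, Gars, Iars and Yars. Of the synthetases with a window, Aars, Gars, Iars, Tars and Yars held it within 112 bases before to 17 bases after the start. A match of letters is a description and not a binding site.

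**Figure D1:**
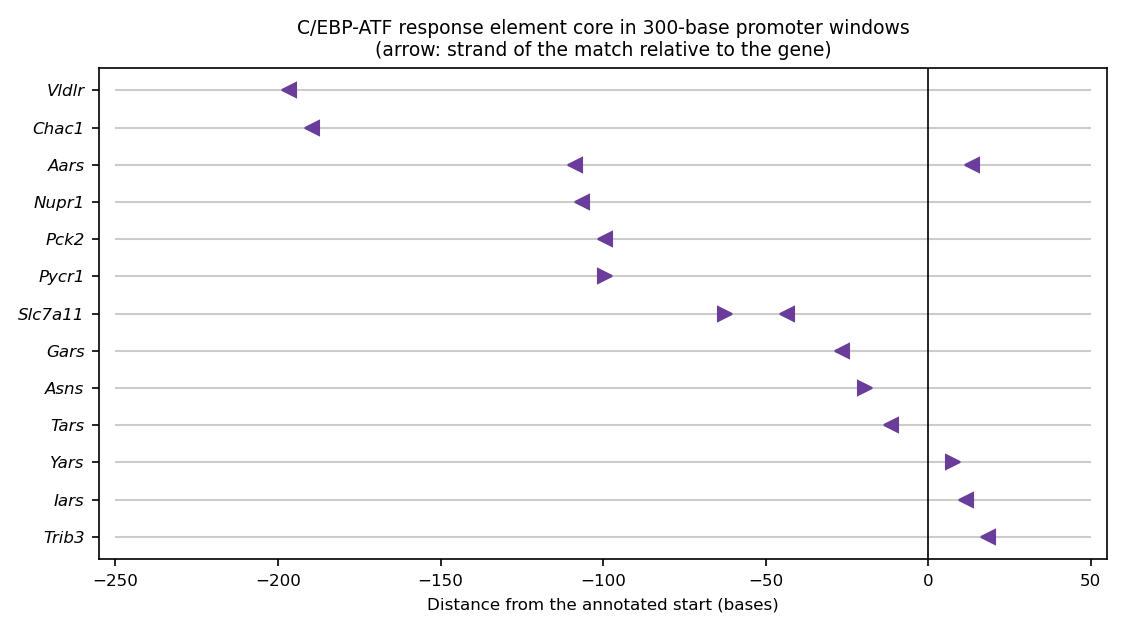
Position of each TGATGNAA match in member promoters, in bases from the RefSeq start site (0), 1 row per gene, with arrows for the strand of the match relative to the gene. TGATGNAA was in 13 of the 31 genes with a window, from 200 bases before the start in Vldlr to 22 bases after it in Trib3.

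The question in each experiment was how expression differs with PRDM16 from that with PRDM16mut. A gene was tested where at least 2 of the 4 libraries reached 1 FPKM, and it was called where limma gave a Benjamini-Hochberg adjusted p under 0.05 over all genes tested. Fold changes are on the scale of log2(FPKM + 1), PRDM16 minus PRDM16mut, which understates the change of genes with low FPKM. Cbs, which makes cystathionine, stayed under 1 FPKM in all 12 libraries, and Vldlr stayed under 1 FPKM in both MLL-AF9 experiments. They were not tested there. The level of a gene is given as replicate 1 and then replicate 2. Where a call was lost when a library was left out, the highest adjusted p over all alternatives is given beside it.

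In the E2A-HLF cotransduction, 33 of the 37 tested genes were higher with PRDM16 and 2 were lower, whereas 22.7% of all genes tested were called higher and 21.1% lower. The members called in either direction made up 94.6% of those tested, against 43.8% of all genes. The increases reached every role, from Atf4 itself to 12 of 13 synthetases. The lower genes were Ass1, which makes argininosuccinate, and Vldlr, a lipoprotein receptor. Slc7a11 and Vars were not called. The median difference of the members was 0.41 log2 units, against 0.01 for all genes. PRDM16 and PRDM16mut libraries did not overlap in any of the 37 genes, against 73.7% of all genes. A difference of at least 2-fold among called genes was seen in 3 members, Cth, Nupr1 and Atf5, and in 5.75% of all genes. In the same libraries 6 of 7 tested neutrophil granule genes were higher with PRDM16.

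In the MLL-AF9 cotransduction the members divided. Of 36 tested, 10 were higher with PRDM16, 12 were lower and 14 were not called, against 35.6% of all genes called higher and 34% lower. The higher genes were Ddit4, Trib3, Nupr1, Pycr1, Ass1, Gpt2, Slc7a11, Slc3a2, Sars and Wars. The lower ones were Atf4, Atf5, Chac1, Asns, Psph, Mthfd2, Cth, Slc7a1, Cars, Eprs, Nars and Tars. The share of members called in either direction, 61.1%, was below the 69.5% of all genes, and the members' median difference was 0.02 log2 units, against 0.01 for all genes. PRDM16 and PRDM16mut libraries did not overlap in 27 of the 36, against 86.3% of all genes. Leaving out either PRDM16mut replicate gave fewer calls, and leaving out either PRDM16 replicate gave more. This held both for the members and for all genes. Markers moved in the same libraries: 9 of 10 neutrophil granule genes and 11 of 11 genes of dividing cells were also lower with PRDM16.

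In the MLL-AF9 stable cells, differences were small. Of 36 tested genes, 8 were higher with PRDM16 (Trib3, Asns, Psph, Cth, Gpt2, Pck2, Slc7a11 and Sars), Chac1 was lower and 27 were not called. Among all genes 4.2% were called higher and 2.16% lower, and the share called in either direction was 25% of the members, against 6.36% of all genes. No member differed by 2-fold. The groups did not overlap in 29 of the 36, against 60.6% of all genes. Of the calls over all genes 66% were higher, and 51.6% after quantile normalization. Under that setting 10 members were higher and 2 lower, and 7.59% of all genes were called in either direction. Leaving out any single library gave fewer calls, both among the members and over all genes. At an unadjusted p under 0.05 limma found 20 of the 36 (55.6%), against 28.8% of all genes.

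**Figure D2:**
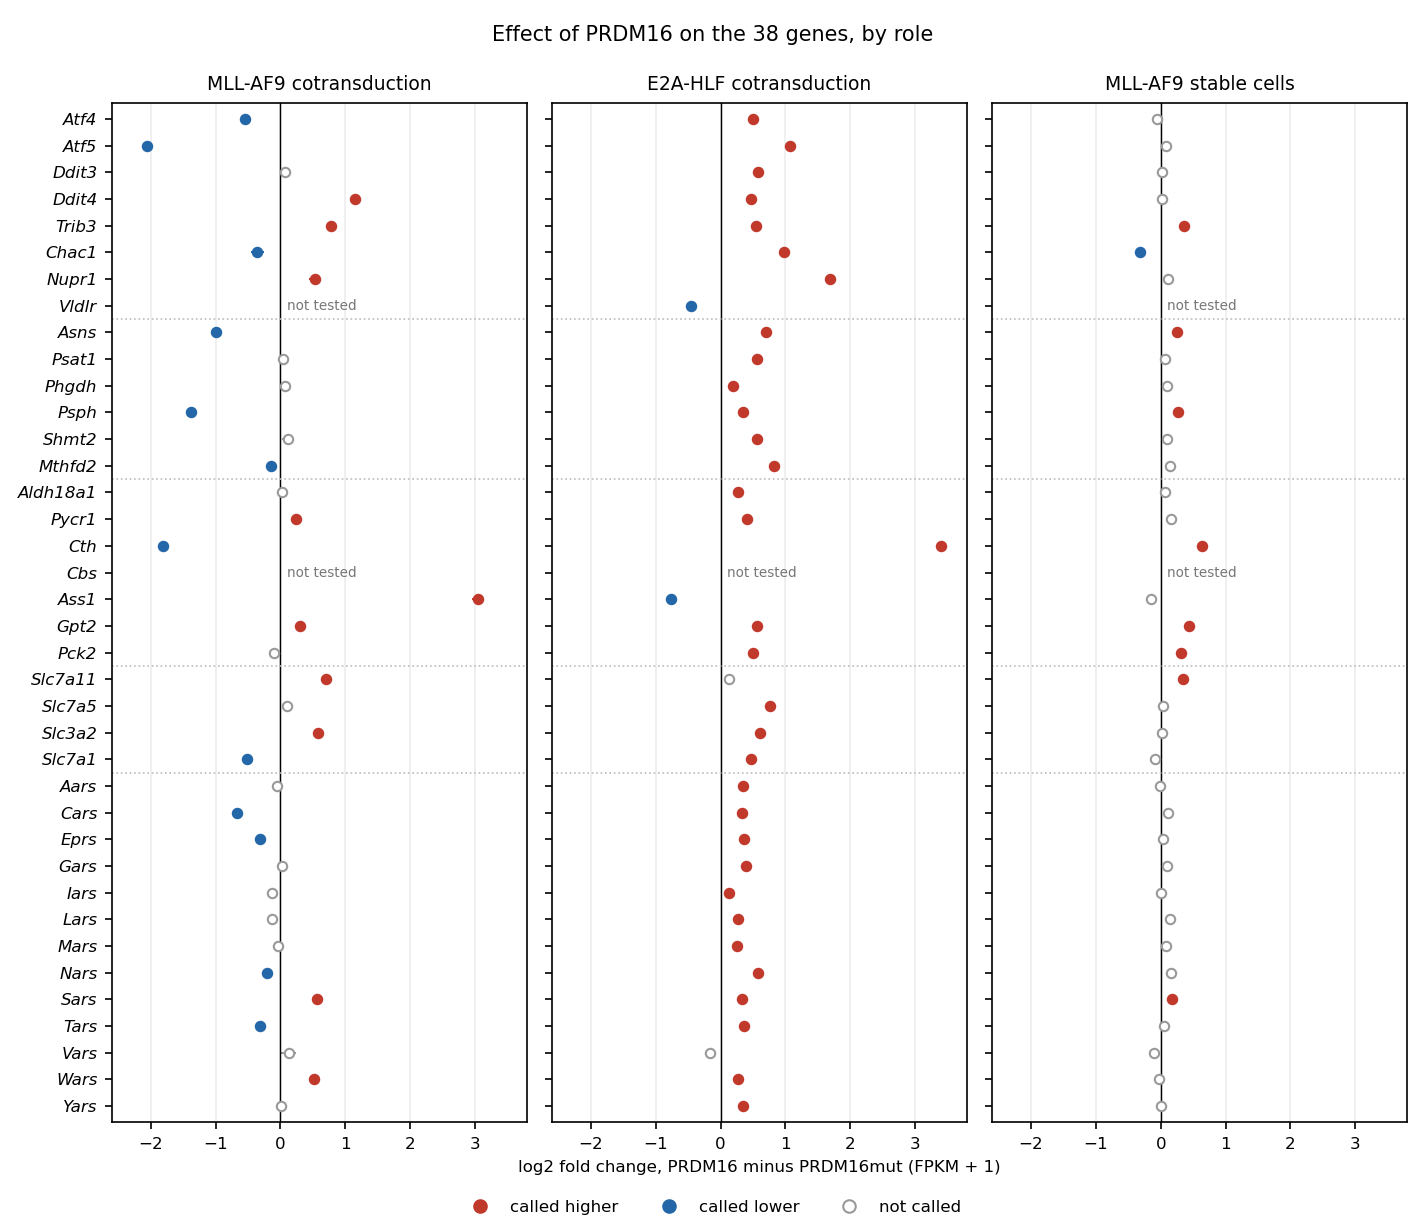
Difference in log2(FPKM + 1), PRDM16 minus PRDM16mut, for each member grouped by role, 1 panel per experiment, with standard errors from limma as bars and the call as colour. In the E2A-HLF cotransduction 33 of 37 tested genes lie on the higher side as calls, in the MLL-AF9 cotransduction 10 are higher and 12 lower, and in the stable cells most lie near 0.

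Among the regulators, Atf4 itself moved in opposite directions in the cotransductions. In the MLL-AF9 cotransduction it had 149 and 148 FPKM in PRDM16 libraries, against 217 and 218 FPKM in PRDM16mut libraries. In the E2A-HLF cotransduction it had 302 and 291 FPKM in PRDM16 libraries, against 207 and 214 FPKM in PRDM16mut libraries. Within each experiment the groups did not overlap, and the PRDM16 group was the low one with MLL-AF9 and the high one with E2A-HLF. The log2 differences were -0.55 (SE 0.05, adjusted p = 2.75e-04) and 0.49 (SE 0.05, adjusted p = 5.85e-04). Atf4 in the stable cells stood at 336 and 334 FPKM in PRDM16 libraries and 345 and 355 FPKM in PRDM16mut libraries, a log2 difference of -0.06 that was not called (adjusted p = 0.258). Since ATF4 is controlled mainly at translation, its mRNA level is not a measure of its protein.

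Atf5, a related factor that is also controlled at translation, showed the same reversal on a larger scale. Its level was 9.87 and 11.7 FPKM in PRDM16 libraries of the MLL-AF9 cotransduction, against 48.2 and 47.3 FPKM in its PRDM16mut libraries. With E2A-HLF it was 17.8 and 18.1 FPKM in PRDM16 libraries, against 8.38 and 7.72 FPKM in PRDM16mut libraries. The PRDM16mut libraries were thus the high ones in the first case and the low ones in the second, without overlap. The log2 differences were -2.05 (SE 0.09, adjusted p = 2.86e-05) and 1.07 (SE 0.06, adjusted p = 4.53e-05). Atf5 in the stable cells had 48.8 and 50 FPKM in PRDM16 libraries and 45.5 and 48.0 FPKM in PRDM16mut libraries, and was not called.

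Ddit3 encodes CHOP, which acts in stress-induced cell death. It was called in the E2A-HLF cotransduction alone, where PRDM16 libraries had 19.0 and 18.1 FPKM, against 11.8 and 12.4 FPKM in PRDM16mut libraries (log2 difference 0.58, SE 0.05, adjusted p = 3.91e-04). In the MLL-AF9 cotransduction it had 22.4 and 22.7 FPKM in PRDM16 libraries and 21.2 and 21.5 FPKM in PRDM16mut libraries (adjusted p = 0.234). Its groups overlapped in the stable cells, at 11.3 and 11 FPKM with PRDM16 and 10.4 and 11.5 FPKM with PRDM16mut. The effect in the E2A-HLF experiment was larger than in the MLL-AF9 cotransduction by 0.50 log2 units in a test of the difference (-0.50 for MLL-AF9 minus E2A-HLF, adjusted p = 1.04e-04).

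Trib3, a pseudokinase induced by ATF4 and CHOP that feeds back on ATF4, was the one regulator called higher in all 3 experiments. In the MLL-AF9 cotransduction it had 10.5 and 11.2 FPKM in PRDM16 libraries, against 5.76 and 5.98 FPKM in PRDM16mut libraries. With E2A-HLF it had 16.2 and 15.0 FPKM in PRDM16 libraries, against 10.1 and 10.7 FPKM in PRDM16mut libraries. Stable cells had 25.4 and 25.0 FPKM in PRDM16 libraries, against 18.9 and 19.9 FPKM in PRDM16mut libraries. The PRDM16 libraries were above the PRDM16mut libraries each time, by 0.79, 0.54 and 0.36 log2 units (adjusted p = 2.24e-04, 8.63e-04 and 0.0135 in the order given). The last call was lost when either PRDM16 replicate was left out (highest adjusted p = 0.0739). Trib3 thus rose in the MLL-AF9 cotransduction, where Atf4 fell.

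Chac1, which degrades glutathione, reversed between experiments. Its FPKM was 4.19 and 4.97 in PRDM16 libraries of the MLL-AF9 cotransduction and 6.61 and 5.69 in PRDM16mut libraries. With E2A-HLF it was 24.6 and 22.8 in PRDM16 libraries and 12 and 11 in PRDM16mut libraries. The stable cells had 10.5 and 10.8 in PRDM16 libraries and 13.8 and 13.3 in PRDM16mut libraries. The groups did not overlap in any of the 3, and the PRDM16 group was the high one with E2A-HLF alone. The log2 differences were -0.36 (adjusted p = 0.0254), 0.98 (adjusted p = 1.05e-04) and -0.32 (adjusted p = 0.0191). The MLL-AF9 call was lost without PRDM16 replicate 1 or PRDM16mut replicate 1 (highest adjusted p = 0.132), and that in the stable cells on leaving out 3 of the 4 libraries in turn (highest adjusted p = 0.0947).

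Ddit4, an inhibitor of mTORC1, had 50.6 FPKM in both PRDM16 libraries of the MLL-AF9 cotransduction, against 22.5 and 22.1 FPKM in PRDM16mut libraries, a log2 difference of 1.15 (SE 0.05, adjusted p = 3.22e-05). With E2A-HLF it had 26.8 FPKM in both PRDM16 libraries, against 19.7 and 18.3 FPKM in PRDM16mut libraries (log2 difference 0.47, adjusted p = 7.85e-04). Nupr1, a small stress-induced nuclear protein, had 23.8 and 21.3 FPKM in PRDM16 libraries of the E2A-HLF cotransduction, against 5.77 and 6.79 FPKM in PRDM16mut libraries (log2 difference 1.70, SE 0.09, adjusted p = 4.45e-05). With MLL-AF9, Nupr1 had 17.8 and 15.0 FPKM in PRDM16 libraries, against 10.6 and 11.3 FPKM in PRDM16mut libraries (log2 difference 0.54, adjusted p = 0.00409). Both genes rose in the 2 cotransductions, without overlap, and neither was called in the stable cells. There Ddit4 had 9.13 and 9.15 FPKM in PRDM16 libraries and 9.22 and 8.84 FPKM in PRDM16mut libraries, which overlapped. Nupr1 there had 28.5 and 29.5 FPKM in PRDM16 libraries and 26.5 and 26.8 FPKM in PRDM16mut libraries, with the PRDM16 pair above (adjusted p = 0.0940).

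**Figure D3:**
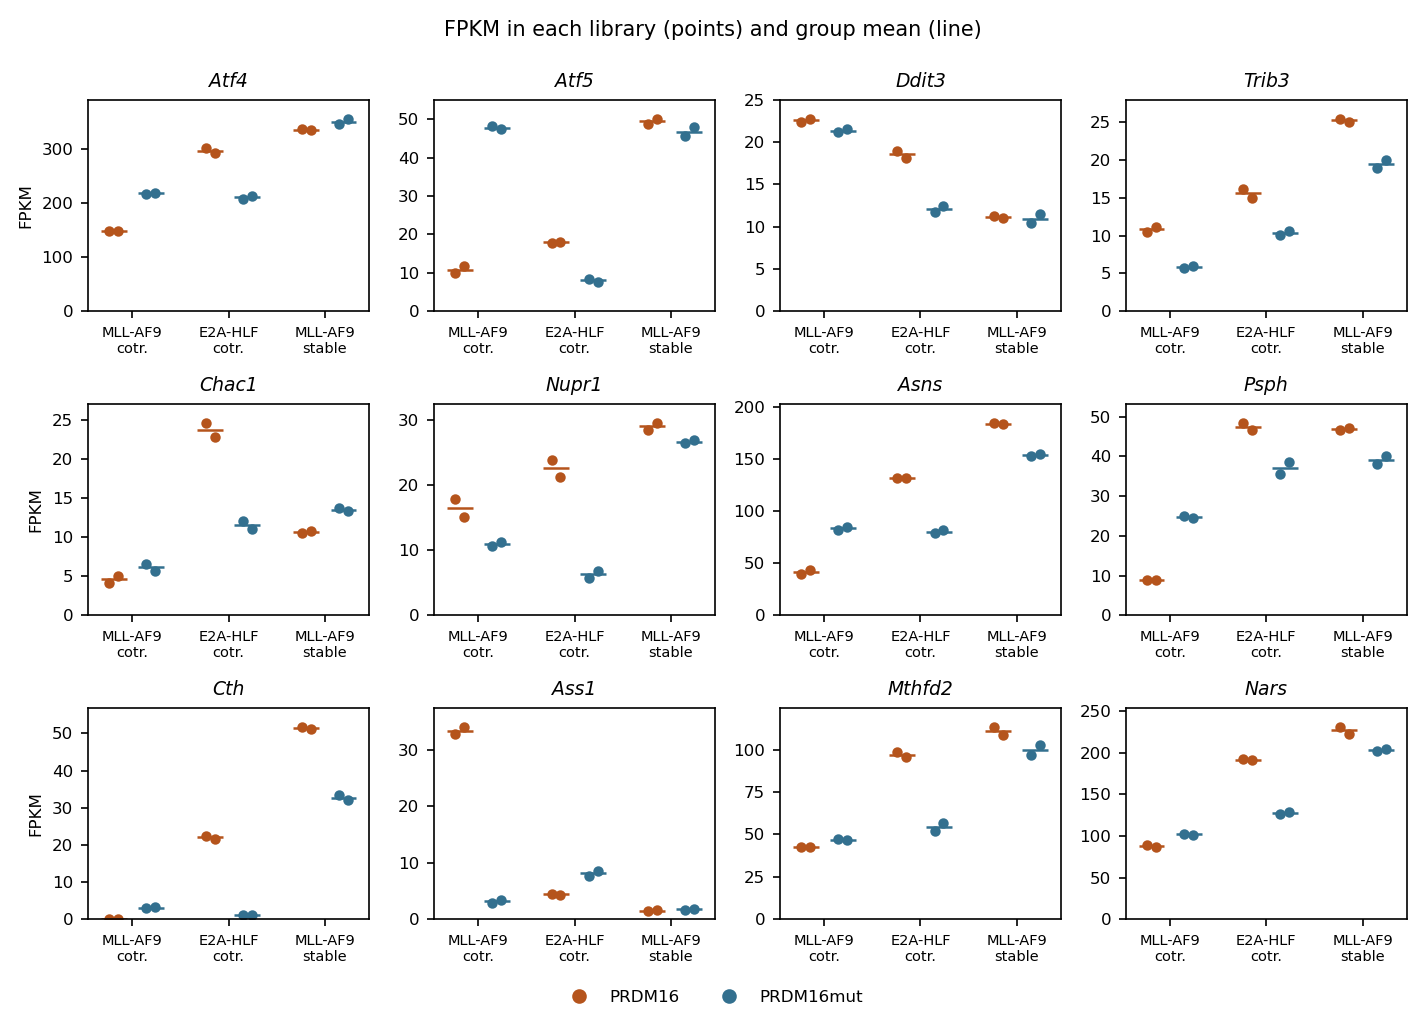
FPKM of 12 members in each library (points, replicate 1 left of replicate 2) with the group mean as a line, PRDM16 left of PRDM16mut in each experiment and every axis starting at 0. Atf4, Atf5, Asns, Psph and Cth are lower with PRDM16 in the MLL-AF9 cotransduction and higher with it in the E2A-HLF cotransduction. Whether the 3 tables share a scaling is not given, so levels are compared within an experiment.

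Of the 6 asparagine, serine and folate enzymes, all 6 were called higher in the E2A-HLF cotransduction (100%, against 43.8% of all genes called in either direction). In the MLL-AF9 cotransduction 3 were lower and 0 higher (50%, below the 69.5% of all genes). In the stable cells 2 were higher (33.3%, against 6.36% of all genes). Asns, the synthetase of asparagine and a standard ATF4 target, had 40.1 and 43.2 FPKM in PRDM16 libraries of the MLL-AF9 cotransduction, against 82.0 and 85.0 FPKM in PRDM16mut libraries. With E2A-HLF it had 132 FPKM in both PRDM16 libraries, against 79.1 and 81.6 FPKM in PRDM16mut libraries. The stable cells had 185 and 183 FPKM in PRDM16 libraries, against 153 and 155 FPKM in PRDM16mut libraries. The PRDM16 group was thus the low one in the first experiment and the high one in the others, with no overlap in any. Log2 differences were -0.99 (SE 0.06, adjusted p = 9.03e-05), 0.71 (SE 0.04, adjusted p = 7.74e-05) and 0.26 (SE 0.03, adjusted p = 0.0158), the last lost when either PRDM16 replicate was left out (highest adjusted p = 0.116).

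Psph carries out the last step of serine synthesis, after Phgdh and Psat1. It had 8.96 and 8.87 FPKM in PRDM16 libraries of the MLL-AF9 cotransduction, against 25.0 and 24.6 FPKM in PRDM16mut libraries (log2 difference -1.38, SE 0.05, adjusted p = 2.18e-05). With E2A-HLF it had 48.4 and 46.6 FPKM in PRDM16 libraries, against 35.7 and 38.5 FPKM in PRDM16mut libraries (log2 difference 0.35, adjusted p = 0.00319). Stable cells had 46.7 and 47.2 FPKM in PRDM16 libraries, against 38 and 40.0 FPKM in PRDM16mut libraries. The groups did not overlap in any of the 3 experiments, and the PRDM16 group was the low one with the MLL-AF9 cotransduction alone. The log2 difference in the stable cells was 0.26 (adjusted p = 0.0247), a call lost on leaving out 3 of the 4 libraries in turn (highest adjusted p = 0.124). In the MLL-AF9 cotransduction the earlier enzymes of the pathway were not called, with log2 differences of 0.07 for Phgdh and 0.04 for Psat1, and their groups overlapped. Psph shares 26.1% of its exon bases with a Cct6a transcript on the opposite strand in the GENCODE M21 annotation, and the library kit is not stated to keep strand, so its reads cannot all be assigned.

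With E2A-HLF, Psat1 rose by 0.57 log2 units, to 211 and 204 FPKM in PRDM16 libraries, against 135 and 145 FPKM in PRDM16mut libraries (adjusted p = 4.82e-04). Phgdh, which also has an annotated pseudogene, rose by 0.19 (adjusted p = 0.0147), a call that was lost when either PRDM16 replicate was left out (highest adjusted p = 0.105). Shmt2 and Mthfd2 are mitochondrial enzymes that move the carbon of serine onto folate. Shmt2 had 177 and 171 FPKM in PRDM16 libraries, against 116 and 118 FPKM in PRDM16mut libraries (log2 difference 0.57, adjusted p = 2.21e-04). Mthfd2 had 98.5 and 95.4 FPKM in PRDM16 libraries, against 52.3 and 56.6 FPKM in PRDM16mut libraries (log2 difference 0.82, adjusted p = 1.04e-04). In none of these did the groups overlap, as in 73.7% of all genes with E2A-HLF. Mthfd2 was lower by a log2 difference of -0.14 in the MLL-AF9 cotransduction (adjusted p = 0.0455), a call lost when either PRDM16mut replicate was left out (highest adjusted p = 0.378).

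The widest differences among the members were in Cth and Ass1. Cth makes cysteine from cystathionine. With MLL-AF9 it was 0.182 and 0.168 FPKM in PRDM16 libraries, against 2.93 and 3.30 FPKM in PRDM16mut libraries, so it passed the filter through the PRDM16mut libraries alone. With E2A-HLF it was 22.5 and 21.5 FPKM in PRDM16 libraries, against 1.12 and 1.22 FPKM in PRDM16mut libraries. Stable cells had 51.7 and 51.1 FPKM in PRDM16 libraries, against 33.3 and 32.1 FPKM in PRDM16mut libraries. Cth was therefore near 0 with PRDM16 in the first experiment and high with PRDM16 in the others, without overlap in any. Log2 differences were -1.81 (SE 0.07, adjusted p = 2.32e-05), 3.41 (SE 0.06, adjusted p = 9.79e-07) and 0.64 (SE 0.03, adjusted p = 0.00172). At a pseudocount of 0.1 the first became -3.55.

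Ass1 went the other way from Cth. It had 32.7 and 34.0 FPKM in PRDM16 libraries of the MLL-AF9 cotransduction, against 2.84 and 3.5 FPKM in PRDM16mut libraries. With E2A-HLF it had 4.55 and 4.22 FPKM in PRDM16 libraries, against 7.72 and 8.59 FPKM in PRDM16mut libraries. It was the high gene with PRDM16 where Cth was the low one, and the groups did not overlap. The log2 differences were 3.05 (SE 0.09, adjusted p = 9.69e-06) and -0.77 (SE 0.07, adjusted p = 4.26e-04). Ass1 in the stable cells stayed at 1.44 and 1.59 FPKM in PRDM16 libraries and 1.66 and 1.89 FPKM in PRDM16mut libraries and was not called.

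Gpt2, the mitochondrial alanine aminotransferase, was called higher in all 3 experiments. Its log2 differences were 0.30 with MLL-AF9 (4.70 and 4.72 FPKM in PRDM16 libraries, 3.63 and 3.67 FPKM in PRDM16mut libraries), 0.56 with E2A-HLF (15.1 and 15.0 FPKM, against 9.91 and 9.85 FPKM in PRDM16mut libraries) and 0.44 in the stable cells (21.7 and 20.5 FPKM, against 14.8 and 15.7 FPKM in PRDM16mut libraries). The groups did not overlap in any. The calls in the MLL-AF9 cotransduction and the stable cells were each lost when some single libraries were left out, with adjusted p up to 0.0740 and 0.0750. Pck2, which makes phosphoenolpyruvate in mitochondria, rose by 0.50 with E2A-HLF and by 0.32 in the stable cells (adjusted p = 3.39e-04 and 0.00962), where the call was lost when either PRDM16 replicate was left out (highest adjusted p = 0.0659). The proline enzymes Pycr1 and Aldh18a1 rose by 0.41 and 0.28 with E2A-HLF. With MLL-AF9, Pycr1 was higher by 0.24 (adjusted p = 0.0244), a call lost without PRDM16 replicate 2, PRDM16mut replicate 1 or PRDM16mut replicate 2 (highest adjusted p = 0.165).

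The 4 transporters import cystine (Slc7a11), large neutral amino acids (Slc7a5) and cationic amino acids (Slc7a1), and Slc3a2 is the heavy chain that carries both Slc7a11 and Slc7a5 to the membrane. With E2A-HLF, Slc7a5 had 117 and 111 FPKM in PRDM16 libraries, against 65.9 and 67.8 FPKM in PRDM16mut libraries (log2 difference 0.76, SE 0.05, adjusted p = 9.33e-05). Slc3a2 had 151 and 148 FPKM in PRDM16 libraries, against 96.6 and 98.4 FPKM in PRDM16mut libraries (log2 difference 0.61, SE 0.04, adjusted p = 1.41e-04). For all 4 transporters both PRDM16 libraries lay above the PRDM16mut libraries, while the groups did not overlap in 73.7% of all genes. Slc7a11, with 3.82 and 4.28 FPKM in PRDM16 libraries and 3.68 and 3.56 FPKM in PRDM16mut libraries, was the one not called (log2 difference 0.13, adjusted p = 0.190). With MLL-AF9 the picture differed: Slc3a2 rose by 0.57 and Slc7a11 by 0.70, Slc7a5 was not called and Slc7a1 was lower by a log2 difference of -0.51 (adjusted p = 7.91e-04). Slc7a11 there had 9.89 and 9.21 FPKM in PRDM16 libraries, against 5.49 and 5.51 FPKM in PRDM16mut libraries. Among the transporters in the stable cells, Slc7a11 alone was called (log2 difference 0.34, adjusted p = 0.0283), and that call was lost whichever of the 4 libraries was left out (highest adjusted p = 0.125).

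The synthetases, which join each amino acid to its tRNA, moved together in the E2A-HLF cotransduction. There 12 of 13 were higher, from 0.14 log2 units for Iars to 0.58 for Nars, with a median of 0.33 over the 13. Nars, the asparaginyl-tRNA synthetase, had 192 and 191 FPKM in PRDM16 libraries, against 127 and 129 FPKM in PRDM16mut libraries (SE 0.04, adjusted p = 1.69e-04). Vars, the valyl enzyme, was not called at -0.16 (adjusted p = 0.0554). Summed over the 13, PRDM16 libraries had 1009 and 1019 FPKM, against 813 and 809 FPKM in PRDM16mut libraries. The call of Iars was lost whichever of the 4 libraries was left out (highest adjusted p = 0.326).

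In the MLL-AF9 cotransduction the synthetases divided, with 2 higher, 4 lower and 7 not called. The called share, 46.2% of the 13, was below the 69.5% of all genes. Sars (seryl) had 53.8 and 56.1 FPKM in PRDM16 libraries, against 37.4 and 36.5 FPKM in PRDM16mut libraries, and Wars (tryptophanyl) had 44.7 and 49.5 FPKM, against 32.7 and 32.6 FPKM in PRDM16mut libraries. Their log2 differences were 0.56 and 0.51 (adjusted p = 4.31e-04 and 0.00137). Cars (cysteinyl) was lower, with 9.90 and 10.9 FPKM in PRDM16 libraries, against 17.5 and 16.8 FPKM in PRDM16mut libraries (log2 difference -0.67, adjusted p = 5.56e-04). Tars, Eprs and Nars had log2 differences of -0.32, -0.31 and -0.21. Those 3 calls were each lost without PRDM16mut replicate 2, and those of Tars and Nars also without PRDM16mut replicate 1 (highest adjusted p = 0.202 over the 3). The summed level of the 13 was 587 and 613 FPKM in PRDM16 libraries and 612 and 610 FPKM in PRDM16mut libraries, and the groups overlapped. Aars shares 23.1% of its exon bases with Exosc6 on the same strand, so some of its reads may belong to that gene.

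Sars in the stable cells was the single synthetase called, at 67.6 and 65.0 FPKM in PRDM16 libraries and 57.4 and 59.6 FPKM in PRDM16mut libraries (log2 difference 0.18, adjusted p = 0.0496). That call was lost whichever of the 4 libraries was left out (highest adjusted p = 0.208). Sars was called higher in all 3 experiments, as were Trib3 and Gpt2. Of the 9475 genes tested in all 3 tables, 0.602% were called higher in each and 0.0422% lower in each, and no member was lower in each.

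The effect of PRDM16 was compared between experiments in 1 limma fit of the 12 libraries, over the 9475 genes. The effect in the MLL-AF9 cotransduction differed from that in the E2A-HLF cotransduction for 32 of 36 members, against 71.4% of all genes. The signs were opposite in 18 of the 32, against 73% of all genes whose effects differed. The effect was the lower one with MLL-AF9 in 26 of the 32, against 54.3% of all genes whose effects differed. Between the MLL-AF9 cotransduction and the stable cells 22 of 36 differed, against 64% of all genes. Between E2A-HLF and the stable cells 25 of 36 differed, against 37% of all genes, and in 24 of the 25 the effect was higher with E2A-HLF, as in 54.4% of all genes whose effects differed. Counted by calls, 13 members (36.1% of the 36 tested in both cotransductions) were called in opposite directions in the cotransductions, against 22.6% of all genes. Those 13 were 61.9% of the 21 members called in both, compared with 69.8% of all genes called in both. Between the MLL-AF9 experiments, Asns, Psph and Cth were called in opposite directions (8.33% of 36 members, against 1.84% of all genes). These 3 were 37.5% of the 8 members called in both, compared with 40.2% of all genes called in both. Between E2A-HLF and the stable cells Chac1 alone was called in opposite directions (2.78%, against 1.7% of all genes). It was 12.5% of the 8 members called in both, compared with 48.4% of all genes called in both.

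The calls of members with and without the TGATGNAA motif were set side by side. With E2A-HLF, 11 of 13 tested genes with the motif and 16 of 17 with a window but no motif were higher. With MLL-AF9, 4 of 12 with the motif were higher and 3 lower, and 5 of 17 without it were higher and 6 lower. In the stable cells, 4 of 12 with it were higher and 1 lower, and 3 of 17 without it were higher and 0 lower. Of all genes, 22.7% were called higher and 21.1% lower with E2A-HLF, and 35.6% and 34% with MLL-AF9. The stable cells had 4.2% and 2.16%. Only the windows were searched, so a member without the motif there may hold it elsewhere. Asns and Trib3 both hold the motif, and with MLL-AF9 the first fell and the second rose. Whether the motif bears on any of these calls was not tested.

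Genes that act beside the members were described from 6 further lists, whose counts are to be read against all genes called in either direction, 69.5% with MLL-AF9, 43.8% with E2A-HLF and 6.36% in the stable cells. In the list of eIF2 kinases, phosphatases and other ATF4 partners or targets, 12 of 20 tested genes rose and 2 fell with E2A-HLF, 7 rose and 7 fell with MLL-AF9, and 5 of 19 rose in the stable cells. These were 70% of the tested genes in each cotransduction and 26.3% in the stable cells. With MLL-AF9, Jdp2, a bZIP repressor, had 1.92 and 1.85 FPKM in PRDM16 libraries, against 31.3 and 31.8 FPKM in PRDM16mut libraries. Atf3, a stress-induced bZIP factor, had 22.3 and 23.9 FPKM in PRDM16 libraries, against 3.97 and 3.89 FPKM in PRDM16mut libraries. The 2 factors moved in opposite directions, by log2 differences of -3.49 and 2.29 (adjusted p = 2.03e-06 and 8.16e-06). Ero1l, an oxidase of the endoplasmic reticulum, was lower with MLL-AF9 (log2 difference -1.27) and higher with E2A-HLF (1.57) and in the stable cells (0.30), the same directions as Asns.

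Chaperones and sensors of the endoplasmic reticulum are the targets of the unfolded protein response, which shares the kinase Eif2ak3 with the ATF4 pathway. With E2A-HLF all 17 were higher, with a median of 0.58 log2 units, and Edem1, which marks misfolded glycoproteins for degradation, had 62.4 and 65.7 FPKM in PRDM16 libraries, against 22.6 and 23.2 FPKM in PRDM16mut libraries. With MLL-AF9, 12 of 17 were lower and 1 was higher (76.5% called), with a median of -0.64. Hsp90b1, a chaperone, had 253 and 229 FPKM in PRDM16 libraries, against 499 and 506 FPKM in PRDM16mut libraries. Stable cells had 4 of 17 lower and 0 higher (23.5% called), among them Hyou1 and Calr with log2 differences of -0.27 each. The called genes of this list were thus lower in these cells, while 8 of the 9 called members were higher.

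The synthetases outside the members followed in part. With E2A-HLF, 6 of 10 further cytosolic synthetases and cofactors were higher and 0 lower (60% called), while of 17 mitochondrial synthetases 1 was higher and 1 lower (11.8%). With MLL-AF9 the counts were 4 higher and 1 lower of 10 (50%), and 5 higher and 3 lower of 17 (47.1%), both shares below that of all genes. Lars2, the mitochondrial leucyl enzyme, had 664 and 661 FPKM in PRDM16 libraries there, against 209 and 227 FPKM in PRDM16mut libraries (log2 difference 1.60, adjusted p = 1.83e-05). The ribosomal precursor RNA Rn45s was listed at 0 in those PRDM16 libraries, against 1542 and 1554 FPKM in the PRDM16mut libraries. Whether ribosomal reads bear on the Lars2 values was not tested. Among 17 other folate, arginine and glutamine enzymes tested with MLL-AF9, 8 were higher and 7 lower (88.2%). Arg1, which breaks down arginine, had 0.0204 and 0.0376 FPKM in PRDM16 libraries, against 25.5 and 23.7 FPKM in PRDM16mut libraries and passed the filter through the PRDM16mut libraries alone. With E2A-HLF 8 of 17 of these enzymes were higher and 1 lower (52.9%). Aldh1l2, a mitochondrial folate enzyme, was higher with E2A-HLF (log2 difference 1.32) and in the stable cells (0.50). In the stable cells 2 of 10 further cytosolic synthetases and cofactors (20%), 0 of 17 mitochondrial synthetases (5 at an unadjusted p under 0.05 in limma) and 1 of the 17 other enzymes (5.88%) were called. Other amino acid transporters were called higher in 5 and lower in 6 of 13 with MLL-AF9 (84.6%), in 4 and 2 of 13 with E2A-HLF (46.2%), and in 2 and 1 of 13 in the stable cells (23.1%). Slc7a8, a neutral amino acid transporter, had 36.8 and 37.7 FPKM in PRDM16 libraries of the E2A-HLF cotransduction, against 6.08 and 6.66 FPKM in PRDM16mut libraries.

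**Figure D4:**
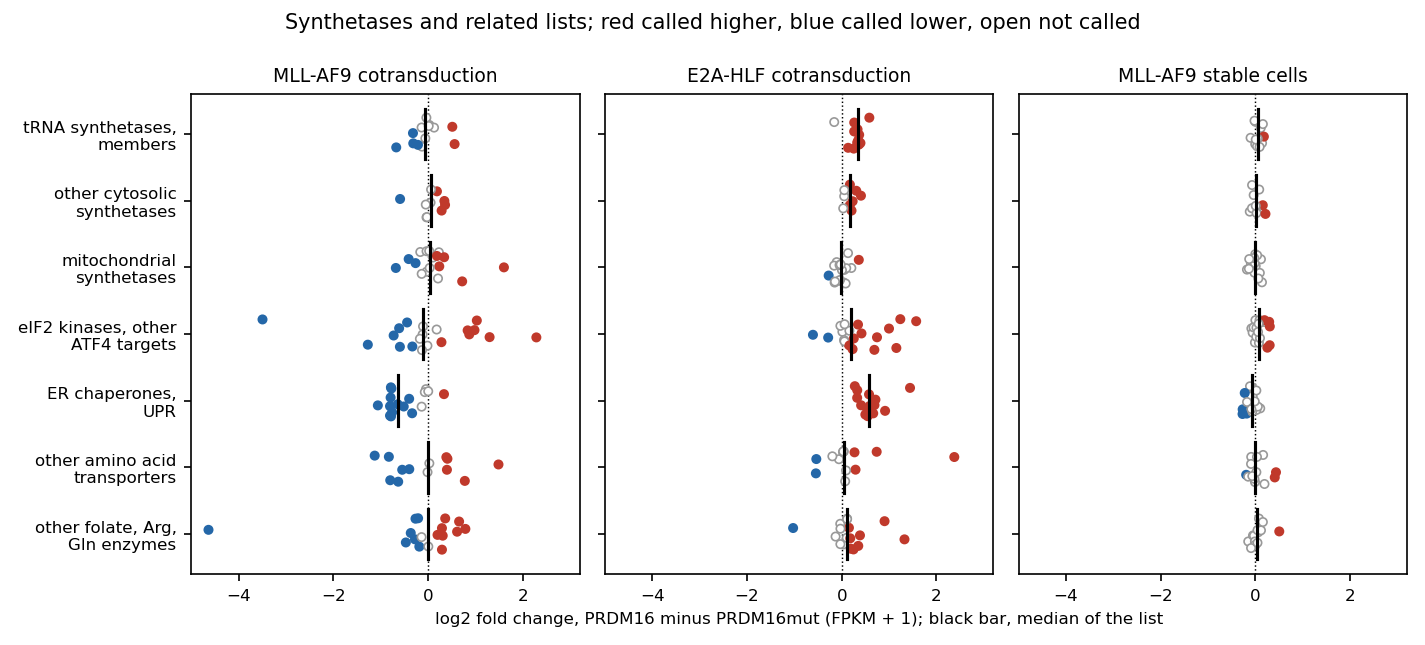
Log2 difference (PRDM16 minus PRDM16mut) of each tested gene in the synthetase members and 6 related lists, 1 panel per experiment, with the list median as a line. Chaperones of the endoplasmic reticulum lie above 0 with E2A-HLF (median 0.58) and mostly below 0 with MLL-AF9 (median -0.64).

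Cell state markers moved with PRDM16 in the cotransductions. Their counts are to be read against all genes called higher and lower. These were 35.6% and 34% with MLL-AF9, 22.7% and 21.1% with E2A-HLF, and 4.2% and 2.16% in the stable cells. With MLL-AF9, 9 of 10 neutrophil granule genes were lower and 1 higher, and their summed level was 510 and 565 FPKM in PRDM16 libraries, against 9233 and 9158 FPKM in PRDM16mut libraries. All 9 mast cell and basophil genes were lower, with sums of 117 and 109 FPKM in PRDM16 libraries and 2174 and 2155 FPKM in PRDM16mut libraries. Of these, Tpsab1 was listed at 0 in both PRDM16 libraries, so it passed the filter through the PRDM16mut libraries alone. All 11 genes of dividing cells were lower, with sums of 604 and 600 FPKM in PRDM16 libraries and 980 and 983 FPKM in PRDM16mut libraries. Of 7 monocyte genes 5 were higher and 1 lower. Erythroid genes were higher in 4 and lower in 1 of 5 tested, and megakaryocyte genes higher in 3 and lower in 2 of 5. Ribosome biogenesis genes were higher in 2 and lower in 3 of 10. Rn45s, the ribosomal precursor RNA, was 0 in each PRDM16 library, as listed, and stood at 1542 and 1554 FPKM in PRDM16mut libraries, whereas it was 941 to 1451 FPKM in the 8 libraries of the other experiments.

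With E2A-HLF, 6 of 7 tested neutrophil granule genes were higher. All 10 listed neutrophil granule genes, tested or not, summed to 1456 and 1392 FPKM in PRDM16 libraries and 658 and 669 FPKM in PRDM16mut libraries. Monocyte genes were higher in 4 of 6 and lower in 2. Genes of dividing cells were lower in 1 of 11 and higher in 0, with sums of 1003 and 974 FPKM in PRDM16 libraries and 999 and 1028 FPKM in PRDM16mut libraries. Ribosome biogenesis genes were higher in 5 of 10 and lower in 0. Mast cell and basophil genes were higher in 4 and lower in 1 of 6 tested. Erythroid genes were higher in 3 and lower in 1 of 7 tested, and megakaryocyte genes higher in 1 and lower in 2 of 3 tested. In the stable cells 1 of 10 neutrophil granule genes was higher and 2 lower, 0 of 11 genes of dividing cells were called by limma (1 at an unadjusted p under 0.05), and 4 of 10 ribosome biogenesis genes were lower. The part of these markers in the members' differences was not tested.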

How the data were processed

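Per the submitters' processing notes, Bowtie2 2.0.0.7, TopHat2 2.0.3, Cuffdiff and the mm9 build were used. Not given in the sources used here were the Cuffdiff version, gene annotation, filters and library scaling. The authors deposited 3 tables of FPKM, 1 per experiment, with 4 libraries each. Libraries were made from oligo(dT)-primed RNA with a TruSeq v2 kit, per the labels.

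Each table was fitted alone with limma 3.58.1 in R 4.3.3 (trend on mean level, two-sided) on log2(FPKM + 1), PRDM16 minus PRDM16mut, for genes with at least 1 FPKM in at least 2 of 4 libraries (11071, 11010 and 10580 genes in the MLL-AF9 cotransduction, E2A-HLF cotransduction and stable cells). Benjamini-Hochberg adjusted p under 0.05 was called. Differences between experiments came from 1 fit with 6 groups. The scripts were tested on simulated data. With 2 libraries against 2, the smallest p of an exact permutation test is 0.333. The labels do not say that replicates were separate cultures, so p-values measure only the spread between libraries, which may be technical. FPKM carry no counts, so no counting interval was computed. Between 84.9% and 87.5% of low-value ratios between replicates were ratios of small whole numbers (within 0.5%), which gave the relative depth.

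Members and lists were chosen with earlier results of these data known. Values in every library are given for Atf4, Ddit3, Asns, Trib3 and Chac1 and for members called with an absolute log2 difference of at least 1. The other members, some with their libraries' values, and up to 4 called genes of largest absolute difference per related list were named by value, range or count. Alternatives were a pseudocount of 0.1, no filter, a minimum of 5 FPKM, quantile normalization, a spread shared over 12 libraries, a replicate block, and leaving out each library. Promoter windows are of GRCm38.p6 and exon overlaps of GENCODE M21, another build than mm9, and no mm9 coordinates were used.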

Additional observations from a re-analysis of the deposited data

Results flagged for a closer look

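The following members are listed because the effect of PRDM16 on them differed between 2 experiments in the joint limma fit of 12 libraries, with Benjamini-Hochberg adjustment over 9475 genes. They are the 6 of smallest p for each pair of experiments. Each value is the log2 effect (PRDM16 minus PRDM16mut) in the experiment named first minus that in the other. Such differences were common, since 71.4%, 64% and 37% of all genes had one in the 3 pairs in the order below, and no explanation was tested.

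For the MLL-AF9 cotransduction minus the E2A-HLF cotransduction, Cth differed by -5.22 (adjusted p = 2.71e-12) and Ass1 by 3.81 (adjusted p = 8.21e-10). Atf5 differed by -3.12, Psph by -1.73, Asns by -1.70 and Atf4 by -1.04, each with an adjusted p of at most 3.58e-08. In all 6 the groups lay in opposite orders in the 2 experiments, in 2 of 2 libraries on each side. That follows in part from picking these 6 by their p in the same libraries. The signs were opposite in 73% of all genes whose effects differed. Groups did not overlap in 86.3% of all genes with MLL-AF9 and in 73.7% with E2A-HLF.

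Cth passed the filter in the MLL-AF9 cotransduction through the PRDM16mut libraries alone, and its effect there was -1.81, or -3.55 at a pseudocount of 0.1, so the size of its differences from that experiment depends on the pseudocount.

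For the MLL-AF9 cotransduction minus the stable cells, Ass1 differed by 3.19, Cth by -2.45, Atf5 by -2.13, Psph by -1.64, Asns by -1.25 and Ddit4 by 1.13, each with an adjusted p of at most 1.12e-07. For Ass1, Atf5 and Ddit4 the effect in the stable cells was not called.

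For the E2A-HLF cotransduction minus the stable cells, Cth differed by 2.77, Nupr1 by 1.58, Chac1 by 1.30, Atf5 by 0.99, Slc3a2 by 0.59 and Atf4 by 0.56, each with an adjusted p of at most 2.39e-05. Cth was called higher in both experiments, and Chac1 was called higher with E2A-HLF and lower in the stable cells.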

How the results depend on the processing

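Of the members called, 15 of 22 in the MLL-AF9 cotransduction, 33 of 35 in the E2A-HLF cotransduction and 1 of 9 in the stable cells (Cth) stayed called in the same direction under every alternative in which they were tested. Leaving out 1 library gave 7 to 16 members lower in the MLL-AF9 cotransduction (12 with all libraries), and 1 to 6 higher (8 with all) and 0 to 1 lower (1 with all) in the stable cells. In the E2A-HLF cotransduction 1 member was lower, not 2, at a minimum of 5 FPKM and with the spread shared over 12 libraries, where Vldlr was not tested. In the stable cells, no filter gave 2 higher and 0 lower, quantile normalization gave 2 lower, and the shared spread gave 0 lower. With the replicate block, 10 members were higher and 11 lower with MLL-AF9, 31 and 2 with E2A-HLF, and 7 and 1 in the stable cells. Quantile normalization gave 10 higher and 14 lower with MLL-AF9, and 31 and 3 with E2A-HLF. Phgdh and Iars lost their E2A-HLF calls under quantile normalization and with the replicate block. Sars in the stable cells also lost its call at a pseudocount of 0.1, without a filter and with the replicate block. Same-numbered libraries share a number only: their deviations from the group mean correlated across genes at 0.07, 0.29 and 0.32 in the 3 experiments in that order. Over all genes the stable cells had 673 calls, against 41 without a filter, 298 with the shared spread and 67 to 219 on leaving out 1 library.

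Signs turned only in uncalled members. Quantile normalization gave -0.032 for Psat1, -0.0033 for Phgdh, -0.056 for Gars and -0.0031 for Yars with MLL-AF9, and -0.024 for Slc3a2, -0.012 for Iars and -0.011 for Yars in the stable cells. On leaving out 1 library with MLL-AF9, Phgdh ran from -0.016 to 0.16, Aldh18a1 from -0.035 to 0.096, Aars from -0.13 to 0.013, Mars from -0.077 to 0.0067, Vars from -0.048 to 0.30 and Yars from -0.029 to 0.057. In the stable cells Ddit3 ran from -0.038 to 0.088, Ddit4 from -0.012 to 0.044, Aars from -0.022 to 0.014, Iars from -0.031 to 0.034, Wars from -0.055 to 0.016 and Yars from -0.043 to 0.057. The cause of these changes was not tested.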
